A study of Mus musculus with 3 samples.

Results

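Cluster 8 was a small group of nuclei in which markers of liver, white blood and blood vessel cells had been found together, and it was examined here nucleus by nucleus to see which of these markers a single nucleus carried. Its members were the nuclei with the number 8 in the cluster column that the authors deposited, 92 of 1879 nuclei. They made up 2 of 153 nuclei at embryonic stage E12.5, 52 of 970 at E13.5 and 38 of 756 at E15.5, or 1.31%, 5.36% and 5.03% of each library. The data are single-nucleus ATAC-seq, in which the transposase Tn5 inserts sequencing adapters into accessible chromatin and a droplet barcode marks the nucleus. Nuclei were released from sections of frozen wild-type C57BL/6JRj embryos, stained with a DNA dye (7-AAD), sorted and run on the 10x Genomics ATAC chemistry, and no transgene or treatment was involved. Each stage was 1 library, so stages were not tested against each other, and the sources used here do not say how many embryos a library held. The comparison nuclei were the 1358 of clusters 0, 1, 3, 5, 6, 7, 9, 10 and 11, called the other clusters below. Clusters 2 and 4 were left out.

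Hepatocytes are the secretory cells of the liver and make albumin, apolipoproteins and clotting factors under the control of HNF1, HNF4 and forkhead transcription factors. White blood cells are marked by the surface phosphatase CD45 (Ptprc) and by PU.1 (Spi1), the transcription factor of myeloid and early lymphoid cells. Endothelial cells line blood vessels, are held together by VE-cadherin (Cdh5) and PECAM-1 (Pecam1), and use ETS and SOX transcription factors. In the midgestation embryo the liver is also the main site of blood formation, so all of these cells lie side by side in that organ.

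The nuclei of cluster 8 were well covered, with 21449 to 207886 unique fragments and a median of 79482.5. The median in the other clusters was 70479.5. None of the 92 barcodes occurred in more than 1 library. In E12.5, 1 nucleus was linked to another barcode, with 85.9% of the fragments of the shallower barcode of the pair shared. Counting such linked barcodes once left all counts below as they were. Doublets were not removed.

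The albumin gene (Alb) is shown first. It is 1 of the genes that set the hepatocyte-marker class below, so its counts are a description. The 300 bases around the start of Alb are shown because they hold a match to HNF1. They were covered by 16 fragments from the 16 nuclei called hepatocyte-marker below and by none from those called white blood cell-marker or endothelial-marker. All 1358 nuclei of the other clusters gave 13 fragments there. The 3 sequences after the Alb promoter are distal regions, at least 1 kb from any start of a protein-coding gene, that were accessible in hepatocyte-marker or endothelial-marker nuclei. For each of 3 motifs, the region printed is the one with the largest excess among those with at least 20 fragments that hold the motif in their middle 300 bases, a choice made after the values were seen. Capitals mark matches to any of the 10 motifs searched, which are spelled out with the motif results. The promoter sequence is from RefSeq and the regions are read from the same build, GRCm38.p6, which has the coordinates of mm10. Of the 6 markers, 3 matched the promoter table. Of 9 promoters of list genes read, Alb was the only one with an HNF1 match, 5 held no match to any motif, and that of the endothelial gene Clec14a held an HNF4 match.
Alb promoter, plus strand, chr5:90460620-90460919: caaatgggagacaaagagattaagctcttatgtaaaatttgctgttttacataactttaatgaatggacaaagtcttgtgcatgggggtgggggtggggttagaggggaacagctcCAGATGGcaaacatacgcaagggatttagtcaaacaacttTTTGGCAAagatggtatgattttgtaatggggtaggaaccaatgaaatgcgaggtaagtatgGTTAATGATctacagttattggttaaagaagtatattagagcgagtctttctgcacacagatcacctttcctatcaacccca
Hepatocyte-marker region with HNF1, plus strand, chr2:147968601-147968900: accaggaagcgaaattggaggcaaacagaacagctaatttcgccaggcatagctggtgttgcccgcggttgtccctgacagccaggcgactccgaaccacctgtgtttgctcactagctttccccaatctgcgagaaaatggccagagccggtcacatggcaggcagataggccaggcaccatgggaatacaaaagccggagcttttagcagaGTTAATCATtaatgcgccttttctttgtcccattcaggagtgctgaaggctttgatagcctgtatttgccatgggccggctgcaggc
Hepatocyte-marker region with HNF4, plus strand, chr2:169695101-169695400: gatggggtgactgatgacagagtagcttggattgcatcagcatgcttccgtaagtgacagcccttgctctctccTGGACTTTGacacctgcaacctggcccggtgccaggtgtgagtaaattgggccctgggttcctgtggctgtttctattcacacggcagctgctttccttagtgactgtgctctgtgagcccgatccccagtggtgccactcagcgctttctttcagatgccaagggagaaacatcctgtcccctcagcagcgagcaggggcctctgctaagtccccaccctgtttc
Endothelial-marker region with SOX, plus strand, chr14:79157601-79157900: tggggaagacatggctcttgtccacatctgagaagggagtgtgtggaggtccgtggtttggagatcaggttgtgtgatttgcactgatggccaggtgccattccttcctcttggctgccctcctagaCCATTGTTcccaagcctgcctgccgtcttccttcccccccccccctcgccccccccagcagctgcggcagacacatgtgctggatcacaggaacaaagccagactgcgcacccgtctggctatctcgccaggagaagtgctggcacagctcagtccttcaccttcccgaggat

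The HNF1 region lies between genes, and the nearest start of a protein-coding gene in GENCODE vM21 was that of Foxa2, a forkhead factor of liver and gut, 78218 bp away. It held 22 fragments from hepatocyte-marker nuclei of E13.5 and 1 from E15.5, and none from the other two classes. The HNF4 region is intronic in Tshz2 and held 19 and 1 fragments in the same libraries, with 1 from the other two classes. The SOX region is intronic in Vwa8 and held 9 and 21 fragments from endothelial-marker nuclei at E13.5 and E15.5, again with none from the other two classes.

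The nuclei of cluster 8 were assigned by marker set. Each nucleus was scored for 3 lists of 10 marker genes by the share of its gene fragments (unique fragments in a gene body or the 2 kb upstream) that fell in the list. A nucleus was assigned to a list when it had at least 3 such fragments and a rate above the 99th percentile of the other clusters. These limits were 6.28 fragments per 10000 gene fragments for the hepatocyte list, 8.28 for the white blood cell list and 16.7 for the endothelial list. By this rule 16 nuclei were hepatocyte-marker, 32 were white blood cell-marker and 22 were endothelial-marker. No nucleus passed more than 1 limit, 0 of 92, which by the rule of 3 counts of the total allows a share of up to 3.26% (exact Clopper-Pearson upper bound 3.93%). None of the 1358 nuclei of the other clusters passed more than 1 either. The limits were set on those nuclei, and only 12, 14 and 14 of them passed each. That comparison therefore cannot show whether passing no more than 1 limit was particular to cluster 8. With limits at the 95th percentile instead, 8 nuclei of cluster 8 passed more than 1. The remaining 22 nuclei of cluster 8 passed no limit and are called unassigned. The number assigned depended on the rule: 76 nuclei passed none with limits that 1 in 1000 nuclei of the other clusters exceeded, 59 with the held-out genes below, 56 with promoters alone and 60 with nuclei thinned to 5000 fragments. The rates that set the classes are a description, and intervals and limits here cover counting error only.

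Some nuclei lay near each limit. The hepatocyte-marker nuclei had hepatocyte rates of 6.81 to 19.4 with a median of 9.24, and the highest rate among all other cluster 8 nuclei was 5.81, with 2 nuclei less than 20% above the limit and 1 less than 20% below it. The median was 1.93 in the white blood cell-marker nuclei, 1.496 in the endothelial-marker nuclei and 1.89 in the other clusters, so the liver list was at the level of the other clusters there. White blood cell rates ran from 8.55 to 19.96 with a median of 10.5 in the white blood cell-marker nuclei, and the highest below the limit was 8.23. That limit cut through a continuous range, with 8 nuclei less than 20% above it and 4 less than 20% below it. Endothelial rates ran from 18.2 to 30.4 with a median of 22.8 in the endothelial-marker nuclei, against a highest value of 16.6 below the limit, with 4 nuclei less than 20% above it and 8 less than 20% below it. White blood cell-marker nuclei had a median endothelial rate of 7.76, above the 5.39 of the other clusters. The unassigned nuclei were not without these markers. Their median was 5.12 for the white blood cell list and 11.5 for the endothelial list, against 2.42 and 5.39 in the other clusters. For the hepatocyte list it was 2.03 against 1.89.

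**Figure D1:**
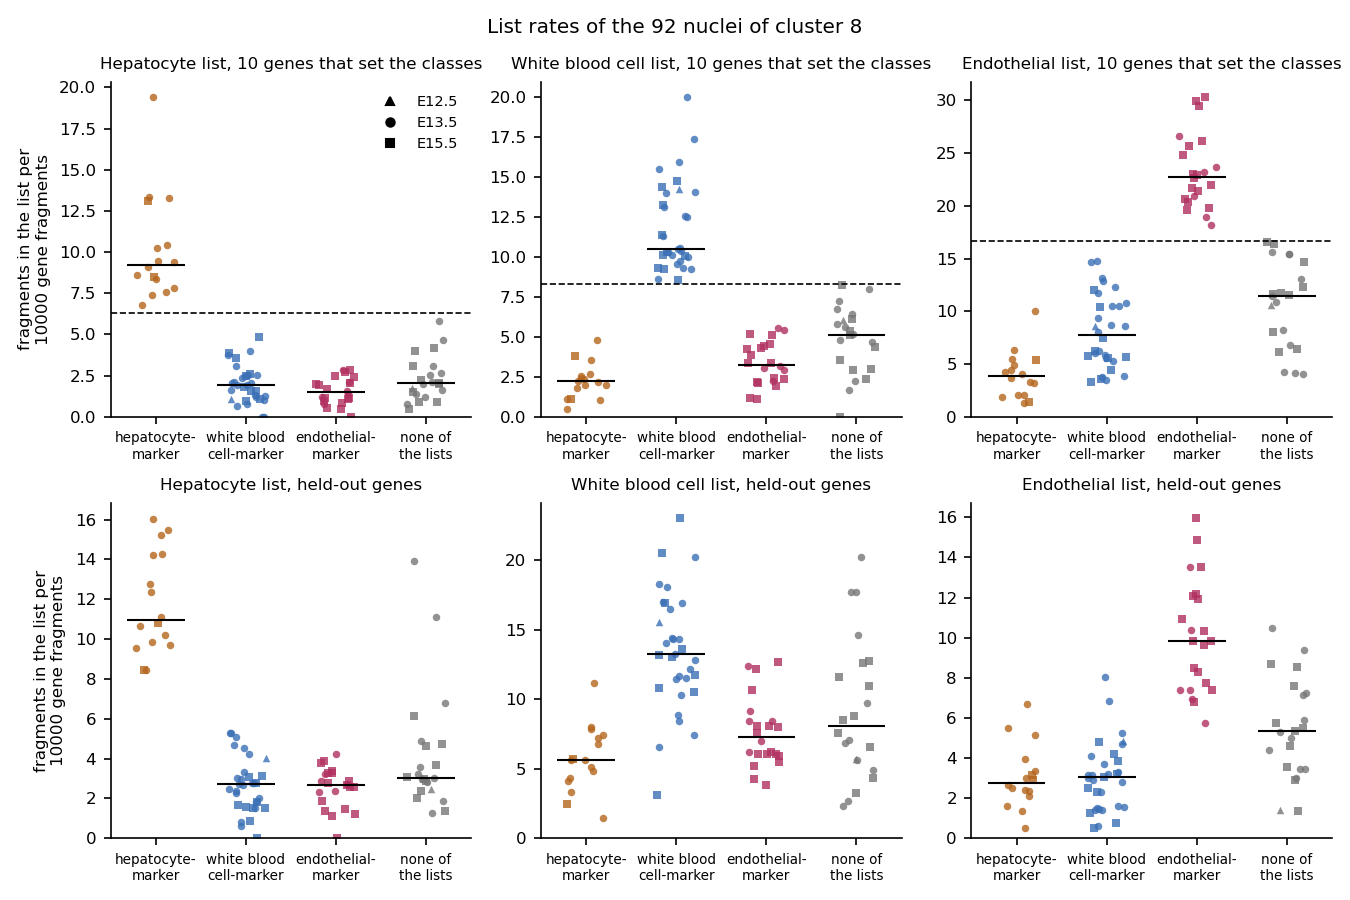
Fragments in each marker list per 10000 gene fragments (vertical axes, linear) in the 92 nuclei of cluster 8, by class (horizontal axes). The upper row shows the 10 genes that set the classes with the limit as a dashed line, the lower row the held-out genes, each point is a nucleus, its shape gives the library and the bar is the class median. The hepatocyte-marker nuclei, at 8.47 to 16.0 in the held-out hepatocyte list, lie above all nuclei of the other two assigned classes.

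The classes were found in different proportions in the libraries. Hepatocyte-marker nuclei were 0, 14 and 2 of the 2, 52 and 38 cluster 8 nuclei in stage order. At E13.5 that was 26.9% (exact Clopper-Pearson 95% interval 15.6 to 41.0%) and at E15.5 5.26% (0.644 to 17.7%). White blood cell-marker nuclei were 1, 21 and 10, or 40.4% (27.0 to 54.9%) at E13.5 and 26.3% (13.4 to 43.1%) at E15.5. Endothelial-marker nuclei were 0, 6 and 16, or 11.5% (4.35 to 23.4%) at E13.5 and 42.1% (26.3 to 59.2%) at E15.5. Of whole libraries, hepatocyte-marker nuclei of cluster 8 were 1.44% at E13.5 and 0.265% at E15.5, and endothelial-marker nuclei were 0.619% and 2.12%. Stage, library and the sections taken cannot be told apart.

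Held-out genes took no part in the assignment. These were 12 other markers per type, of which Dock2 in the white blood cell list was not in the gene set used. The held-out hepatocyte list had the highest rate of the 3, each relative to its median in the other clusters, in 16 of 16 hepatocyte-marker nuclei. For the white blood cell list this held in 30 of 32 white blood cell-marker nuclei, and for the endothelial list in 21 of 22 endothelial-marker nuclei. Fewer passed the 99th percentile of the other clusters in their own held-out list, 12 of 16 hepatocyte-marker, 5 of 32 white blood cell-marker and 10 of 22 endothelial-marker nuclei. Of the 22 unassigned nuclei, 2, 3 and 1 passed these limits in the same order of lists. Held-out hepatocyte rates ran from 8.47 to 16.0 in hepatocyte-marker nuclei, and the highest value was 5.30 in white blood cell-marker and 4.24 in endothelial-marker nuclei, with no overlap between these classes. In unassigned nuclei the rate reached 13.9, inside the range of the hepatocyte-marker nuclei. Held-out white blood cell rates ran from 3.11 to 23.03 in their own class and overlapped those of the endothelial-marker nuclei, at 3.85 to 12.7. They also overlapped those of the hepatocyte-marker nuclei, at 1.48 to 11.2. Held-out endothelial rates ran from 5.73 to 15.9 in their own class and overlapped those of the white blood cell-marker nuclei, at 0.515 to 8.05. They also overlapped those of the hepatocyte-marker nuclei, at 0.493 to 6.69.

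The 6 markers named for the cluster followed the classes in both larger libraries. Accessibility is given as counts per 1000000 gene fragments (CPM). Alb, the gene of serum albumin, was at 134 and 238 CPM in hepatocyte-marker nuclei of E13.5 and E15.5. In the other two classes it was at 3.07 to 7.86 CPM, and in the other clusters at 4.54 to 7.57. Apoa1, the main protein of high-density lipoprotein, was at 45.4 and 100 CPM in hepatocyte-marker nuclei, 3.04 to 7.86 in the other two classes and 10.9 to 15.4 in the other clusters. In unassigned nuclei of E13.5 and E15.5, Alb was at 3.79 and 2.21 CPM on 3 and 1 fragments, and Apoa1 at 12.6 and 15.46 CPM on 10 and 7 fragments. The exact Poisson intervals of these 4 values held the levels of the other clusters. For Pecam1, at 159 and 258 CPM (intervals 133 to 189 and 214 to 310 CPM), they did not, nor for Cdh5, at 55.6 and 68.5 CPM (40.4 to 74.6 and 46.5 to 97.2).

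Spi1, the gene of PU.1, was at 225 and 183 CPM in white blood cell-marker nuclei of E13.5 and E15.5, and at 62.5 to 94.2 CPM in the other two classes. Ptprc, the gene of CD45, was at 117 and 136 CPM there, at 30.7 and 39.5 in endothelial-marker nuclei, and at 17.5 and 75.0 in hepatocyte-marker nuclei, where the second value rests on 6 fragments. Cdh5, the gene of VE-cadherin, was at 158 and 183 CPM in endothelial-marker nuclei and at 0 to 43.2 CPM in the other two classes at these stages. Pecam1 was at 419.5 and 398 CPM in endothelial-marker nuclei. It was also at 213 and 173 CPM in white blood cell-marker nuclei, above the 108 CPM of the other clusters at each of these stages, and it had 58 and 1 fragments in hepatocyte-marker nuclei. These 6 genes belong to the lists that set the classes, so their values are a description.

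**Figure D2:**
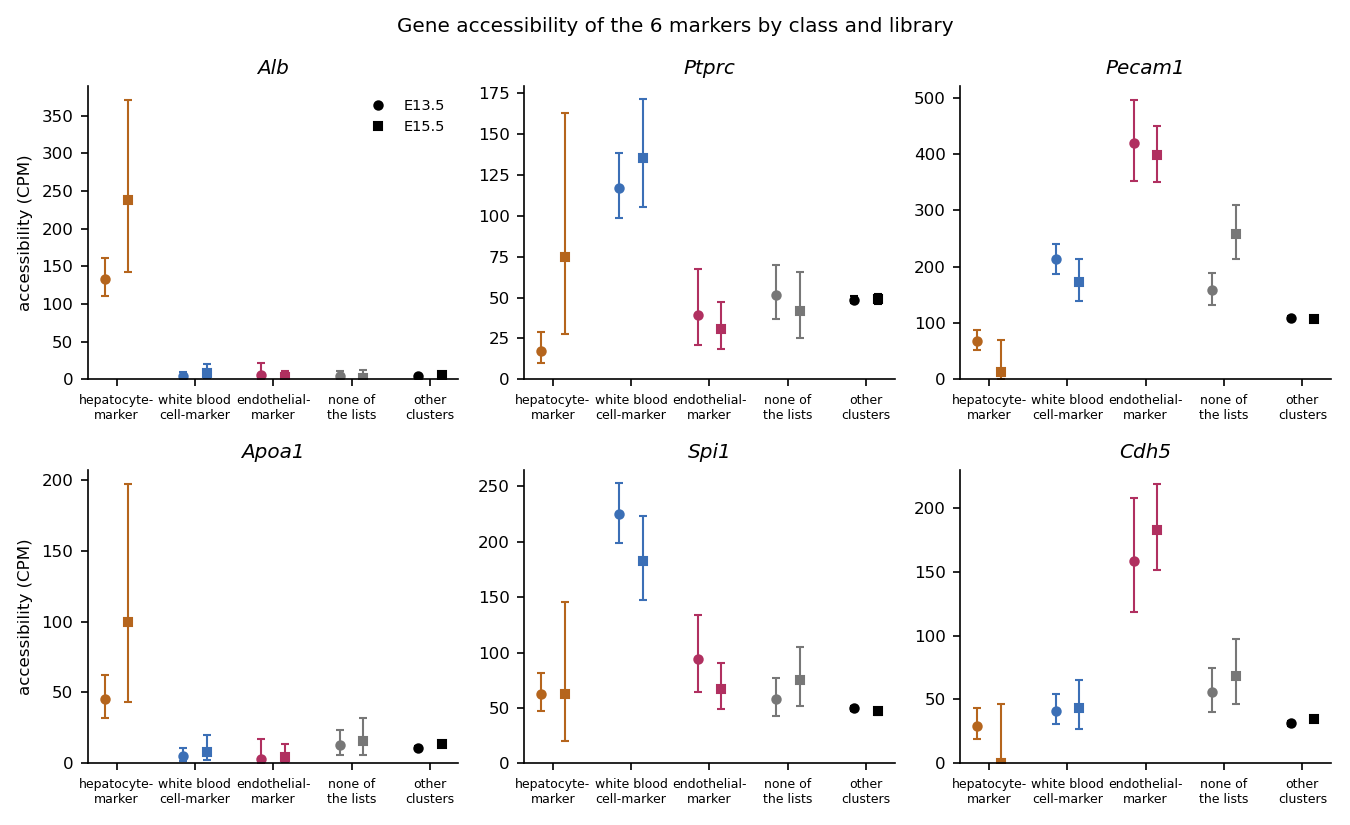
Accessibility (CPM, gene body and 2 kb upstream, linear axes) of the 6 markers by class of cluster 8 nuclei and in the other clusters. Circles are E13.5, squares E15.5, and bars are exact Poisson 95% intervals. Alb, at 134 and 238 CPM, and Apoa1 stand out in hepatocyte-marker nuclei, Ptprc and Spi1 in white blood cell-marker nuclei, and Pecam1 and Cdh5 in endothelial-marker nuclei.

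At the promoter itself, from 1000 bp upstream to 100 bp downstream of the start, a fragment was found in part of each class. Apoa1 had a promoter fragment in 12 of 16 hepatocyte-marker nuclei (75.0%, 47.6 to 92.7%) and Alb in 8 of 16 (50.0%, 24.7 to 75.3%). In the other clusters these shares were 5.82% and 1.55%. Cdh5 had one in 13 of 22 endothelial-marker nuclei (59.1%, 36.4 to 79.3%), against 5.01% of the other clusters. Spi1 had one in 12 of 32 white blood cell-marker nuclei (37.5%, 21.1 to 56.3%), against 5.15%. Ptprc had one in 5 of 32 (15.6%, 5.28 to 32.8%), against 2.21%. Pecam1 did not follow the classes at its promoter, with a fragment in 10 of 32 white blood cell-marker nuclei (31.2%, 16.1 to 50.0%) and 6 of 22 endothelial-marker nuclei (27.3%, 10.7 to 50.2%), against 3.46% of the other clusters. These shares pool libraries that differed. All 7 Ptprc promoter fragments of white blood cell-marker nuclei came from E13.5, with 0 from the 10 nuclei of E15.5. In the same nuclei Pecam1 had 15 and 2 promoter fragments, at 69.6 and 19.1 promoter CPM (per 1000000 promoter fragments), and Spi1 had 10 and 10, at 46.4 and 95.4. Cdh5 had 3 and 14 in the 6 and 16 endothelial-marker nuclei. In hepatocyte-marker nuclei Alb had 13 and 4, and Apoa1 22 and 1. The erythroid-like clusters 5 and 11 had shares of 0.873 to 5.24% for the 6 genes, at a median depth of 47327 fragments, below the 75317 to 81838 of the 3 classes. Over all 92 nuclei, 25 had a fragment at no promoter of the 3 marker pairs, 51 at 1 pair only, 15 at 2 pairs and 1 at all 3. Of those with 2 pairs, 11 had the white blood cell and the endothelial pair.

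Taken as 1 group, cluster 8 was compared with the other clusters gene by gene. Of 17365 genes with enough fragments, 839 (4.83%) had a level 1.5-fold or more that of the other clusters in both larger libraries. The count was 9 of 10 for the white blood cell list, 6 of 10 for the endothelial list and 2 of 9 for the hepatocyte list. For the held-out genes of the same types, introduced above, it was 5 of 10, 1 of 12 and 1 of 12. It was 8 of 10 for the oxidase and Fc receptor genes of phagocytes, 3 of 7 for macrophage, 3 of 4 for granulocyte and 0 of 6 for lymphoid genes. The macrophage and granulocyte lists share genes with the held-out white blood cell list. For clotting factors the count was 4 of 10 and for liver sinusoid genes 3 of 6. It was 0 of 8 for erythroid genes, 0 of 7 for mesenchyme genes, 0 of 5 for neuron genes and 0 of 5 for hepatic stellate cell genes. The other clusters include erythroid-like clusters 5 and 11 and other tissues, so a count of 0 here does not show that such genes were closed. The clusters were made from these nuclei, so this is a description with no test. The held-out hepatocyte list was at 3.27 times the level of the other clusters in hepatocyte-marker nuclei and at 1.35 times in the cluster as a whole.

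Genes were compared between classes on fragments summed per class and library. The 5 sums with at least 5 nuclei entered: E13.5 for all 3 classes, and E15.5 for the white blood cell-marker and endothelial-marker nuclei. Each class was set against the mean of the other two with edgeR's quasi-likelihood test, with the library as a block and Benjamini-Hochberg adjustment over 16249 genes. With 4 coefficients there was 1 residual degree of freedom, and the hepatocyte-marker sum came from E13.5 alone. It has no replicate of its own, so the spread behind its p-values comes from the other two classes only. At an adjusted p of 0.05, 271 genes were higher and 364 lower in hepatocyte-marker nuclei, 519 and 260 in white blood cell-marker nuclei, and 554 and 198 in endothelial-marker nuclei. These include genes that set the classes, which were 8, 9 and 10 of the genes called higher and whose calls are no result. DESeq2 called fewer, 6, 41 and 92 higher genes, and all of these were also called by edgeR. The p-values measure the spread between sums of nuclei of 2 libraries, which may be technical.

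In hepatocyte-marker nuclei, 7 of 12 held-out hepatocyte genes were called higher, where 1.67% of all genes tested were, and none were called lower. All 12 were above the other two classes, with a median log2 fold change of 2.002, beside -0.000769 over all genes. Foxa2, a forkhead factor that opens liver chromatin, was at 100 CPM in hepatocyte-marker nuclei of E13.5. In the white blood cell-marker sums it was at 4.93 and 1.96 CPM and in the endothelial-marker sums at 0 and 10.7. Its log2 fold change was 4.55 ± 0.80 (SE, edgeR adjusted p = 2.04e-05). Hnf4a, the nuclear receptor that maintains hepatocyte identity, was at 261 CPM against 41.2 to 70.6 in the other 4 sums (log2 fold change 1.99 ± 0.46, edgeR adjusted p = 0.00244).

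Onecut1, a liver and bile duct factor, was at 106 CPM against 11.8 to 33.4 (log2 fold change 2.01 ± 0.56, edgeR adjusted p = 0.0174). The secreted proteins Plg (plasminogen), Itih1 and Serpinf2 (an inhibitor of plasmin) were called higher too, with log2 fold changes of 2.46, 2.56 and 2.81. Hpx and Cps1 were not called, with log2 fold changes of 2.83 ± 1.38 and 1.05 ± 0.83. In the DESeq2 fit only 1 of the 12 genes had an adjusted p and it was not past the threshold.

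Liver products were read outside the genes that set the class. Of 9 such clotting factor genes, 3 were called higher in hepatocyte-marker nuclei and none lower, and 8 had a positive log2 fold change, where 1.67% of all genes tested were called higher and 50% had a positive log2 fold change. The 3 were F11, Fga and Fgg. Fga and Fgg, chains of fibrinogen, were at 46.6 and 59.4 CPM in hepatocyte-marker nuclei and at 0 to 4.61 CPM in the other 4 sums. Both lie beside Fgb, a gene that set the class, and neighbours of such genes were not left out here. The calls of Fga and Fgg are therefore not independent of the assignment. Of 3 such apolipoprotein genes tested none was called, and all 3 had a positive log2 fold change. None of 6 urea cycle genes was called higher, although all 6 had a positive log2 fold change with a median of 1.25.

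Among the 8 genes with the largest log2 fold change in hepatocyte-marker nuclei were Mat1a, the liver enzyme that makes S-adenosylmethionine, at 100 CPM against 0 to 13.7 in the other 4 sums, and Acot4, a thioesterase, at 82.6 against 1.54 to 15.7. Rtl1 and Dio3, neighbours in an imprinted domain of chromosome 12, were both at 47.7 CPM against 0 to 5.89 in the other 4 sums. Their log2 fold changes were 6.20 ± 1.51 and 4.84 ± 1.36, with edgeR adjusted p of 0.00448 and 0.0182. Kcnv2, a potassium channel subunit, was at 122 CPM against 0 to 10.7. Fga, Fgg and Foxa2 were the others of the 8. Of the lists of other cell types, the epithelial cadherin Cdh1 was called higher at 226 CPM against 66.9 to 100.2. The cardiac, septal and liver factor Gata4 was at 191 CPM against 17.2 to 116 and was also called higher. Summed over the hepatocyte-marker nuclei, a list of bile duct genes was 2.57-fold and the epithelial list 1.76-fold the level of the other clusters. The bile duct list was 0.632-fold in white blood cell-marker and 0.695-fold in endothelial-marker nuclei. Whether bile duct cells were among the hepatocyte-marker nuclei was not tested.

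In white blood cell-marker nuclei, 5 of the 10 held-out genes tested were called higher, where 3.19% of all genes were, and none lower. The median log2 fold change of the 10 was 1.93 beside 0.02 over all genes. Ikzf1, the lymphoid and myeloid factor Ikaros, was at 158 and 216 CPM in white blood cell-marker nuclei of E13.5 and E15.5, and at 18.2 to 36.1 in the other 3 sums (log2 fold change 2.60 ± 0.40). Mrc1, the mannose receptor of macrophages, was at 111 and 230 CPM against 16.3 to 54.7 (2.41 ± 0.42). Ikzf1 and Mrc1 were the held-out genes also called by DESeq2, with adjusted p of 0.0046 and 0.0181.

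Csf3r, the receptor for granulocyte colony-stimulating factor, was at 63.2 and 76.6 CPM against 9.12 to 32.2 (log2 fold change 2.08 ± 0.48, edgeR adjusted p = 0.00163). Adgre1, the macrophage antigen F4/80, was at 87.8 and 66.8 CPM against 12.8 to 76.0 and was called higher (log2 fold change 2.04 ± 0.47, edgeR adjusted p = 0.00128), though the E13.5 sum of the 6 endothelial-marker nuclei, at 76.0, lay between its values. Irf8 and Cx3cr1 were not called, with log2 fold changes of -0.06 ± 0.39 and 0.24 ± 0.33.

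Genes of phagocyte function were read next. Of 10 genes of the NADPH oxidase and of Fc receptor signalling, 8 did not set the class. Of these 8, 4 were called higher and all had a positive log2 fold change, and their summed CPM was 2.99-fold that of the other clusters. Over all genes tested in this contrast 3.19% were called higher and 51.4% had a positive log2 fold change. The oxidase subunit Ncf4 was at 118 and 149 CPM in E13.5 and E15.5, against 30.3 to 42.6 in the other 3 sums. The kinase Syk, which acts below Fc receptors, and the Fc receptor gene Fcgr3 were called with log2 fold changes of 1.73 and 2.24. No test of the group was made. Of 7 macrophage genes tested, Adgre1 and Mrc1 were called, and all 7 had a positive log2 fold change. Of 5 granulocyte genes tested Csf3r was called, and of 3 lymphoid genes none was. Summed over the nuclei, the granulocyte list was 3.303-fold, the macrophage list 1.92-fold and the lymphoid list 0.621-fold the level of the other clusters.

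The 8 genes with the largest log2 fold change in white blood cell-marker nuclei included genes of macrophages and microglia. C1qb, a chain of complement C1q made by macrophages, had 31 fragments, at 16.4 and 21.6 CPM in E13.5 and E15.5, and none in the other 3 sums. Against the floor of 3 fragments over the other two classes, it was at least 11-fold higher. The chemokine genes Ccl3 and Ccl9 were at 23.8 and 17.7 and at 31.2 and 31.4 CPM, against 0 to 1.54 and 0 to 3.49 in the other 3 sums. Fcrls, an Fc receptor-like gene of microglia, was at 36.9 and 25.5 CPM against 0 to 9.12. Cd300lb, an activating receptor of myeloid cells, was at 41.0 and 27.5 CPM against 0 to 6.14. Sh2d1b1, Ifi207 and Bex6 were the others, and Bex6 was not called with class limits at the 95th percentile (edgeR adjusted p = 0.0568) or with E12.5 included (0.0530). None of the 8 had an adjusted p in DESeq2.

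In endothelial-marker nuclei, 6 of 12 held-out genes were called higher, where 3.41% of all genes were, and none lower. All 12 had a positive log2 fold change, with a median of 2.04 beside -0.01 over all genes. Clec14a, an adhesion receptor of endothelium, was at 69.9 and 52.2 CPM in E13.5 and E15.5 and at 2.33 to 5.89 in the other 3 sums (log2 fold change 4.15 ± 0.74). Cldn5, the claudin of endothelial tight junctions, was at 24.3 and 69.1 CPM against 0.821 to 3.93 (3.53 ± 0.89, edgeR adjusted p = 0.00526). Sox17, a SOX factor of endothelium, was at 79.0 and 58.3 CPM against 4.66 to 13.7 (3.36 ± 0.61).

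Ptprb, the phosphatase VE-PTP, was at 161 and 226 CPM against 23.6 to 49.3 (log2 fold change 2.65 ± 0.42) and was the only held-out endothelial gene also called by DESeq2 (adjusted p = 0.00104). Plvap, of the diaphragms of fenestrated vessels, was at 112 and 92.1 CPM against 10.5 to 35.3, and Rasip1, which is needed for vessel lumens, at 161 and 138 against 13.7 to 79.1. Eng, Ramp2, Bcl6b, S1pr1, Sox18 and Mmrn2 were not called, with log2 fold changes of 0.08 to 2.19.

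Of 11 genes of VEGF, Tie and Notch signalling, 4 set the class (Kdr, Flt1, Tek and Tie1). Of the other 7 only Flt4, the receptor for VEGF-C, was called higher, and all 7 had a positive log2 fold change. Over all genes tested in this contrast 3.41% were called higher and 49.2% had a positive log2 fold change. Flt4 was at 131 and 132 CPM in endothelial-marker nuclei against 41.2 to 54.7 in the other 3 sums. Markers of more than 1 vessel type were called. Of the 3 venous genes listed Ephb4 and Aplnr were called, at 204 and 201 and at 30.4 and 47.6 CPM against 15.6 to 97.8 and 1.96 to 9.85. The arterial ligand Efnb2 was called too, at 179 and 106 CPM against 33.4 to 48.9, and was 1 of 6 arterial genes. Summed over the endothelial-marker nuclei, the venous list was 2.48-fold and the arterial list 1.22-fold the level of the other clusters. Of 6 genes of liver sinusoids Oit3 was called, and of 4 brain endothelial genes none was. Of 6 pericyte genes Abcc9 and Notch3 were called higher in these nuclei, and 0 of 6 mesenchyme genes were. Summed over the endothelial-marker nuclei, the pericyte list was 0.901-fold the level of the other clusters, so it was not raised against them. The calls are against the hepatocyte-marker and white blood cell-marker nuclei, where the pericyte list was 0.680-fold and 0.642-fold that level.

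Among the 8 genes with the largest log2 fold change were Gpihbp1, which anchors lipoprotein lipase on capillaries, at 39.5 and 43.0 CPM in endothelial-marker nuclei against 0 to 1.64, and Sparcl1, a matrix protein of vessels, at 103 and 157 against 2.33 to 23.6. Sparcl1 had a log2 fold change of 4.15 ± 0.54 (edgeR adjusted p = 2.33e-10). Gpr143, Chst7 and Prrg3 lie on chromosome X, and Gpr143 was at 88.2 and 35.3 CPM against 0.821 to 2.33. Fragments in Y-linked genes were seen in 606 of 757 nuclei of the other clusters at E13.5 and in 3 of 520 at E15.5, so the libraries differed there. The library was a block in the fit, and X-linked genes were 2.71% of the genes called higher and 2.86% of those tested. The share of fragments on X also differed between classes of E13.5, at 1.16% in white blood cell-marker, 1.75% in endothelial-marker and 1.84% in hepatocyte-marker nuclei, and its part in these calls was not tested. Fam181b, Gm10309 and Tecrl were the others of the 8, and Gm10309 was not called with sums of at least 1 nucleus (edgeR adjusted p = 0.085).

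The held-out genes were open at their starts, not only along their bodies. In the window from 1000 bp upstream to 100 bp downstream, held-out hepatocyte genes had 215 fragments in hepatocyte-marker nuclei of E13.5 and 17 in those of E15.5, or 3.92 and 2.81 times the level of the other clusters of the same library. Held-out white blood cell genes were at 3.71 and 3.55 times that level in white blood cell-marker nuclei. Held-out endothelial genes were at 4.95 and 5.76 times that level in endothelial-marker nuclei. Outside their own class, lists were at 0.353 to 1.71 times the level of the other clusters at these stages.

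**Figure D3:**
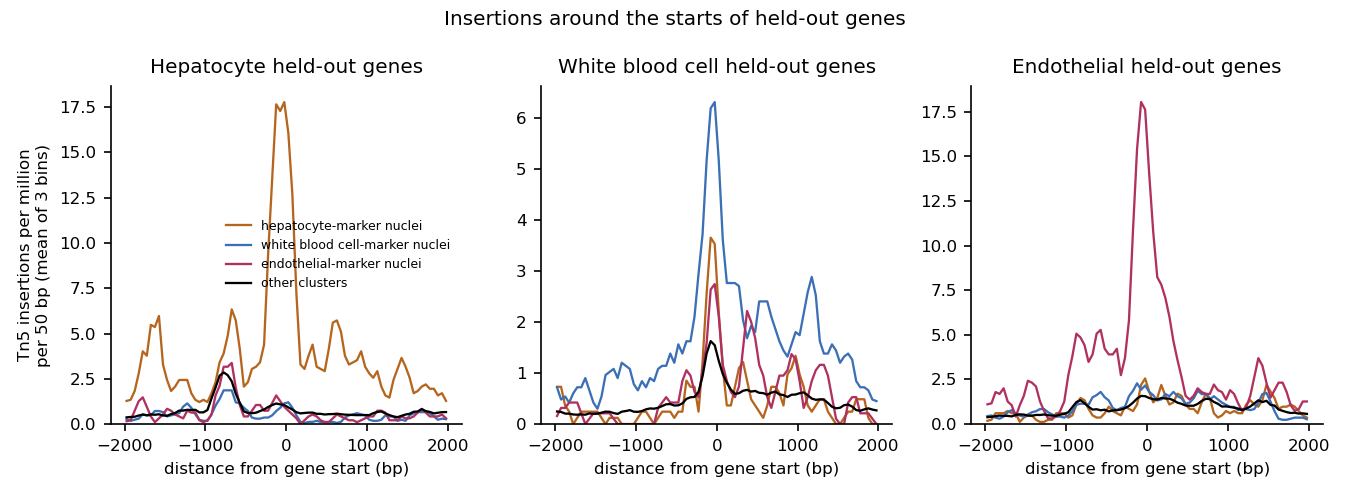
Tn5 insertions in 50 bp bins (mean of 3 bins, scaled to the fragments of each group, linear axes) against distance from the gene start for the held-out genes of each list, by class and in the other clusters. Each list has its highest peak at the start in its own class, and the white blood cell list also peaks in the other two classes, at 4.38 and 3.80 in single bins against 7.21 in its own class and 1.83 in the other clusters.

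Distal regions of each class were selected by their difference between classes and then compared in sequence, which the selection did not use. The genome was cut into 500 bp bins. A bin was called a region of a class when it was distal (as above), had at least 10 fragments in the class and at least 4-fold more, relative to all fragments of the class, than in the other two classes together. There were 2162 hepatocyte-marker, 3059 white blood cell-marker and 3137 endothelial-marker regions, and 56.9%, 55.3% and 68.0% of them were at least 10 kb from any start. Motifs were searched on both strands and compared with all 54041 distal bins with at least 10 fragments in cluster 8. For liver factors the letters were GTTAATNAT (HNF1), CAAAGTCCA (HNF4), TTGCNNAA (the leucine zipper factors C/EBP) and TGTTTAC (forkhead factors). For blood and vessel factors they were GAGGAAGT (PU.1), ACAGGAAGT (ETS), AACAATGG (SOX) and AGATAA (the blood factor GATA), and the motifs of PU.1 and ETS end in the same run of letters. Also searched were TGANTCA, the site of AP-1, and for comparison the neuronal motif of NeuroD, which reads CAGATGG. In the promoters of all RefSeq genes, HNF1 was found in 0.801%, HNF4 in 0.475%, PU.1 in 3.20% and SOX in 1.05%.

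Liver motifs were common in the hepatocyte-marker regions. HNF1 was found in 6.06% of them, against 1.22% of all distal bins, 0.785% of white blood cell-marker and 0.797% of endothelial-marker regions. HNF4 was found in 4.44% against 1.01%, and in 0.425% and 0.574% of the other two sets. The forkhead motif was found in 14.2% against 6.83%, and C/EBP in 29.7% against 19.5%. C/EBP was also found in 24.4% of white blood cell-marker and 16.6% of endothelial-marker regions, and forkhead in 5.23% and 8.19%. PU.1 was found in 16.7% of white blood cell-marker regions, against 7.32% of all distal bins, 9.50% of endothelial-marker and 2.50% of hepatocyte-marker regions. AP-1 was found in 24.6% of the white blood cell-marker regions against 17.4%, and in 20.1% of endothelial-marker and 16.9% of hepatocyte-marker regions. SOX was found in 5.90% of endothelial-marker regions, against 1.97% of all distal bins, 1.18% of white blood cell-marker and 1.67% of hepatocyte-marker regions. ETS was found in 5.10% of endothelial-marker regions against 2.82%, and in 3.92% of white blood cell-marker and 1.06% of hepatocyte-marker regions. GATA and NeuroD differed little between the sets, at 19.1 to 23.3% and 10.9 to 14.1%. A match is a description of the letters and not evidence of binding, and regions of a set are not independent samples.

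**Figure D4:**
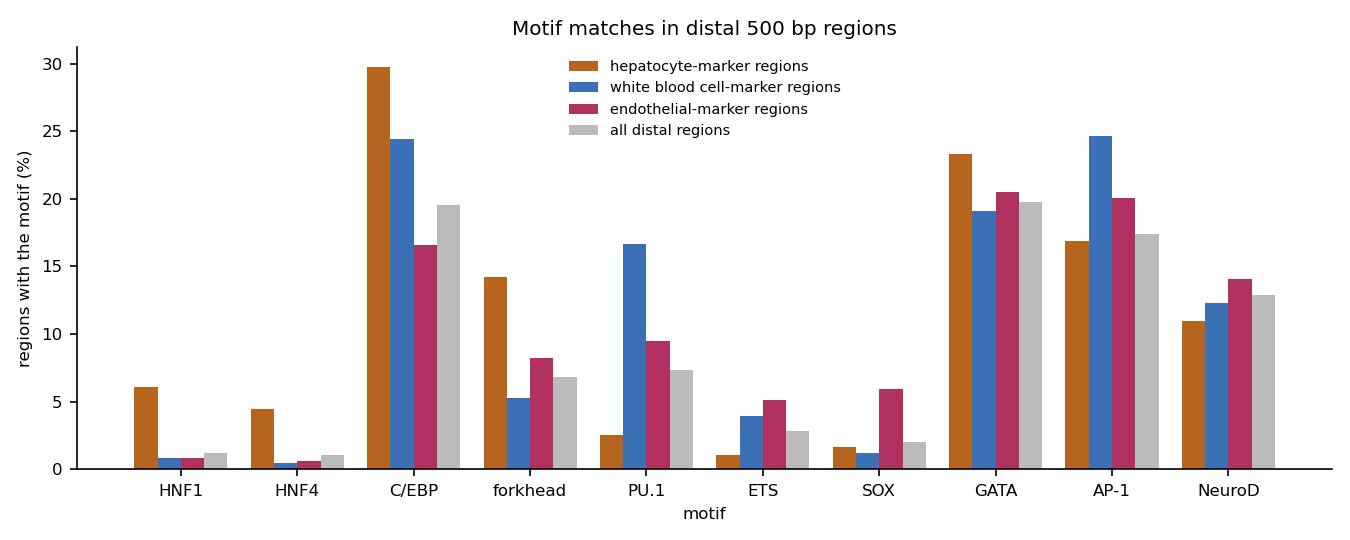
Share of distal 500 bp regions (percent, linear axis from 0) with each of the 10 motifs in the regions of each class and in all distal bins of cluster 8. HNF1 and HNF4 lead in hepatocyte-marker regions, PU.1 in white blood cell-marker regions and SOX in endothelial-marker regions, at 5.90% against 1.97% of all distal bins.

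The regions with the largest excess per class are described by position. They were ranked by that excess among regions with at least 20 fragments, so that they had no fragment in the other two classes follows from the ranking. For hepatocyte-marker nuclei they lie at chr2:79369001-79369500 in an intron of Cerkl, with 31 fragments, at chr1:64787501-64788000 in an intron of Plekhm3, with 28, and at chr7:6860501-6861000 in an intron of Usp29, with 28. For white blood cell-marker nuclei those shown are intergenic, at chr11:87749501-87750000 with 34 fragments and at chr13:111936001-111936500 with 30, and the second held a PU.1 match. For endothelial-marker nuclei they lie at chr6:84058501-84059000, which overlaps an exon of Dysf, with 43 fragments, and in intergenic bins at chr2:174600001-174600500 with 31 and chr3:121900501-121901000 with 30.

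The regions carried over to nuclei that had no part in calling them. Regions were called again from the E13.5 nuclei alone, by the same rule and at least 50 kb from any gene that set the classes, and then read in E15.5 nuclei. There were 1710 hepatocyte-marker, 1345 white blood cell-marker and 110 endothelial-marker regions, called from 14, 21 and 6 nuclei. Why the endothelial-marker regions were few was not tested. The 2 hepatocyte-marker nuclei of E15.5 had 14.3 and 20.2 of every 1000 fragments in the hepatocyte-marker regions. The highest values were 2.19 in the 10 white blood cell-marker and 2.34 in the 16 endothelial-marker nuclei, so these did not overlap. In the white blood cell-marker regions, the white blood cell-marker nuclei had 1.93 to 16.6 with a median of 7.48, and the endothelial-marker nuclei 0.866 to 3.19 with a median of 1.76. In the endothelial-marker regions, the endothelial-marker nuclei had 0.458 to 4.56 with a median of 2.01, and the white blood cell-marker nuclei 0.167 to 0.720 with a median of 0.384. The last 2 pairs overlapped. Relative to the medians of the other clusters, the own set was highest in 2 of 2, 10 of 10 and 16 of 16 assigned E15.5 nuclei.

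**Figure D5:**
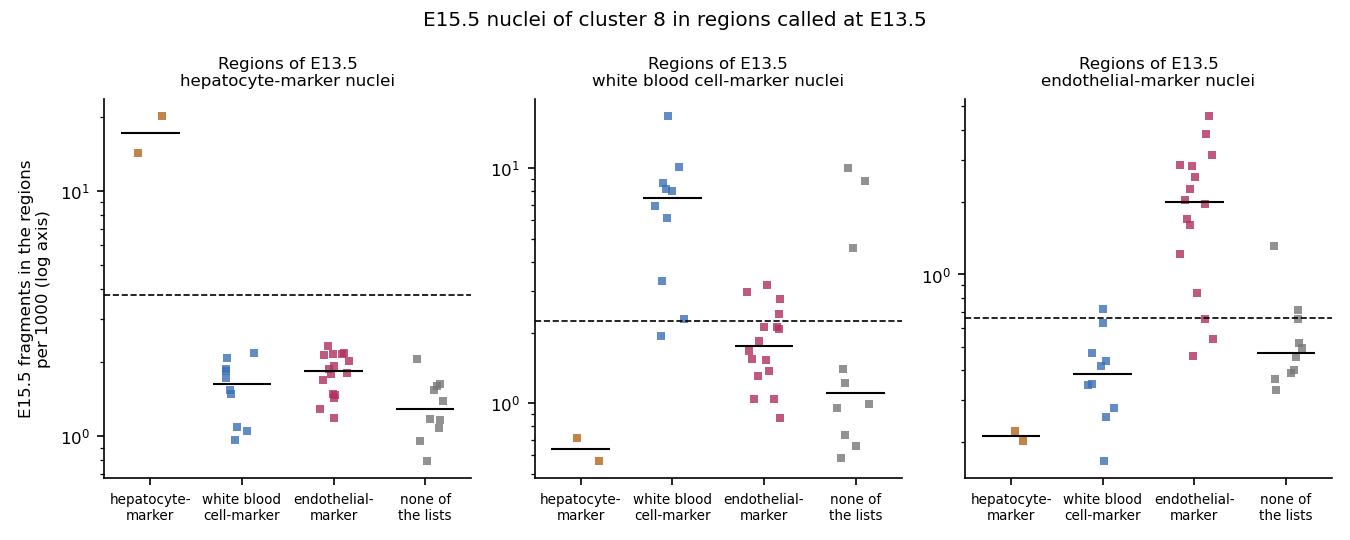
Fragments per 1000 (log axes) of E15.5 nuclei of cluster 8 in distal regions called from E13.5 nuclei of each class. Each square is a nucleus, bars are medians and dashed lines are the 99th percentile of the other clusters. The 2 hepatocyte-marker nuclei, at 14.3 and 20.2, lie far above the rest in the hepatocyte-marker regions.

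Grouping by whole-genome accessibility followed the classes as well. Nuclei were embedded by latent semantic indexing on 5 kb bins, with bins within 50 kb of any gene that set the classes removed. Of the 5 nearest assigned nuclei, 92.5% on average had the same class for hepatocyte-marker nuclei, 93.8% for white blood cell-marker nuclei and 91.8% for endothelial-marker nuclei. The shares of those classes among the assigned nuclei left were 21.7%, 44.9% and 30.4%. Over all assigned nuclei 92.9% of neighbours had the same class and 58.9% were from the same library. In k-means with 3 groups, 15 of 16 hepatocyte-marker nuclei fell in 1 group, 22 of 32 white blood cell-marker nuclei in another, and all 22 endothelial-marker nuclei in the third. The other 10 white blood cell-marker nuclei and 1 hepatocyte-marker nucleus fell in the group of the endothelial-marker nuclei.

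The 22 unassigned nuclei were not shallow, with a median depth of 84105.5 fragments. Their share of fragments at promoters was 9.29%, against 11.8 to 16.6% in the assigned classes and 11.3% in the other clusters. Their share in peaks was 18.5%, against 21.8 to 28.9% and 22.5% in the same order. The 1 unassigned nucleus of E12.5 went the other way, at 24.4% and 32.7%. Whether these shares kept nuclei unassigned was not tested. In 18 of the 22 unassigned nuclei the same list was highest among the class lists and the held-out lists. By the majority of the 5 nearest assigned nuclei, 14 sat among white blood cell-marker nuclei, 5 among endothelial-marker and 2 among hepatocyte-marker nuclei, and 1 had no majority. The k-means groups placed them otherwise. There 12 fell in the group of the endothelial-marker nuclei, 8 with most white blood cell-marker nuclei and 2 with most hepatocyte-marker nuclei. In the regions called from E13.5, 2 unassigned nuclei had 7.01 and 14.6 fragments per 1000 in the hepatocyte-marker set, where the limit set by the 99th percentile of the other clusters was 3.78. There were 8 above the limit in the white blood cell-marker set and 4 in the endothelial-marker set, 1 nucleus of E12.5 was above both, and 9 were above none. Among assigned E15.5 nuclei, which took no part in calling the regions, 2 of 2, 9 of 10 and 13 of 16 were above the limit of their own set. Of the 16 endothelial-marker nuclei, 4 were also above the white blood cell-marker limit.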

How the data were processed

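Single-nucleus ATAC-seq of 3 libraries was used. Per the labels and file headers, the authors aligned reads to mm10 with Cell Ranger ATAC 2.0.0, which shifts fragment ends to the Tn5 insertion and collapses duplicates, and deposited fragment files with read pair counts and a table of nuclei with cluster numbers. The submitters' processing notes also name Seurat 4.1.0 and Signac 1.6.0. The settings of the clustering are not given in the sources used here, and 16 columns of the table were not used. The fragment files held 9402554, 87687839 and 53120243 unique fragments in stage order.

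Each unique fragment of a nucleus was counted once, on chromosomes 1 to 19, X and Y. Genes were the protein-coding genes of GENCODE vM21, with windows as given in the results. Sums of class and library were fitted with edgeR 4.0.16 in R 4.3.3 (5 sums, 4 coefficients, 1 residual degree of freedom), after tests on simulated data, with DESeq2 1.42.0 as an alternative. Neighbours used scikit-learn 1.9.0 in Python 3.11.15. Intervals are exact 95% binomial or Poisson intervals and cover counting error only. Nuclei are not replicates, and nothing was tested between stages or between cluster 8 and other clusters. Doublets were not removed.

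Cluster members, gene lists and motifs were chosen with earlier results of these data known. Genes named were the 6 markers, the list genes, members of other lists where 5 or fewer were called, and per class the 8 genes outside the class lists with the largest log2 fold change past an adjusted p of 0.05, at least 30 fragments in the class and a higher level in every library. Of regions, the 3 with the largest ratio per class were named. Some genes and 1 region that these rules pick are not reported here. Alternatives changed the class limits, windows, depth, reference nuclei, tool, bins and region thresholds.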

Additional observations from a re-analysis of the deposited data

How the results depend on the processing

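Over 68 alternatives for 14 results, 37 left the value within 1.5 times or the replicate or counting error and 31 moved it. These results are counts and a share of neighbours, which have no direction that could reverse. With class limits at the 95th percentile, 8 nuclei passed more than 1 list and 9 passed none. With limits that 1 in 1000 nuclei of the other clusters exceeded, the hepatocyte-marker, white blood cell-marker and endothelial-marker nuclei were 4, 9 and 3, and 76 passed none. With promoters alone, 6 nuclei were hepatocyte-marker, 14 white blood cell-marker, 1 passed more than 1 list and 56 none. Thinned to 5000 fragments, 3, 15 and 13 nuclei were assigned, 1 passed more than 1 list and 60 none. With the held-out lists, 8 were white blood cell-marker, 11 endothelial-marker and 59 none. Nuclei assigned both ways had the same class in 27 of 27 (held-out lists), 30 of 31 (promoters) and 25 of 27 (thinned). At the 95th percentile it was 64 of 64. That is fixed by construction, since a nucleus above the stricter limit of a list is also above the lower limit. Against clusters 5 and 11 alone, 2592 genes were at least 1.5-fold higher in cluster 8, and with promoters alone 549. Genes called in either direction were 635, 779 and 752, with DESeq2 63, 71 and 102, and with promoters alone 46, 74 and 57. Held-out genes called fell from 18 to 3 with DESeq2, which gave an adjusted p for only 1, 7 and 3 of them in the 3 contrasts. With 20 fragments in place of 10, regions were 197, 245 and 461, and 2-fold in place of 4-fold gave 4795 white blood cell-marker regions. Fewer nuclei, genes or regions follow from a stricter limit or fewer fragments by construction. For the other changes the cause was not tested. Reference nuclei no shallower than cluster 8, and the alternatives for held-out genes, were chosen after seeing the data. Leaving out E13.5 or E15.5 leaves no residual degree of freedom. Classes were compared within libraries, with the library as the block.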

Other observations

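Outside cluster 8, 1 nucleus of cluster 11 at E15.5 had 15.1 of every 1000 fragments in the regions called from hepatocyte-marker nuclei of E13.5, in the range of the hepatocyte-marker nuclei, and it passed none of the 3 list limits. The next highest nucleus of the other clusters had 4.97. The erythroid list was at 264, 281 and 276 CPM in the hepatocyte-marker, white blood cell-marker and endothelial-marker nuclei. It was at 1439 CPM in the erythroid-like clusters 5 and 11, at 359 in clusters 0 and 6 and at 270.0 in cluster 1. Free DNA and doublets were not measured.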
